A study of Mus musculus with 48 samples.

Results

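The data described here were the liver transcriptomes of 12 male C57BL/6j mouse samples raised with a conventional gut microbiome, called convR, out of 48 liver libraries in the whole series. They were chosen as the 12 control columns of the male count table, and GEO's labels gave each one as male, conventional raised, aged 15 to 16 weeks and collected at 1 of 6 zeitgeber times. Zeitgeber time (ZT) is counted in hours from the light signal that sets the day, and each of ZT2, ZT6, ZT10, ZT14, ZT18 and ZT22 held 2 libraries. The course was read in 2 ways: as a rhythm with a period of 24 h over all 12 libraries, and as the 6 dark-phase libraries (ZT14, ZT18, ZT22) against the 6 light-phase libraries (ZT2, ZT6, ZT10). The lighting schedule is not in the labels, so the split into phases follows the usual meaning of ZT. The other groups of the series were convR females and germ-free (GF) mice of both sexes, of the same strain, and 12 convR female and 12 GF male libraries enter only the comparisons near the end. Libraries were made from total liver RNA after depletion of ribosomal RNA, with a stranded kit. The labels do not say whether the 2 libraries of a ZT came from separate animals, so the spread between them may be technical. Every p-value rests on that spread, and for the rhythm tests also on how far the ZT means depart from the fitted curve.

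The liver clock is a loop of transcription and translation. ARNTL (BMAL1) pairs with CLOCK or NPAS2 and binds E-boxes in the promoters of the period and cryptochrome genes, whose proteins then block that pair. The same pair drives the nuclear receptors NR1D1 and NR1D2 (REV-ERB), which repress Arntl through ROR elements, sites that the ROR receptors use to activate it. A further arm, the PAR bZIP factors DBP, TEF and HLF and their competitor NFIL3, reads D-boxes. In the liver this loop and the cues of feeding, body temperature and adrenal hormones set daily rhythms in sterol, glucose, bile acid and drug metabolism.

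Total counts ran from 34335183 to 74892274 per library with a median of 38624779. Levels are given as CPM, the counts scaled by the total count of each library alone. Hepatocyte markers were present in every library, with sums between 104324 and 120532 CPM. The ZT18 replicate 1 library stood apart in its pancreas acinar cell markers, with a sum of 335 CPM, where each of the other 11 libraries had between 9.30 and 20.9 CPM. The ZT10 replicate 2 library, also the deepest, stood apart in skeletal muscle markers, at 95.5 CPM against less than 1 CPM elsewhere. The summed Kupffer cell markers were highest at ZT22 (574 and 679.5 CPM) and ZT6 (538 and 575 CPM), whose libraries overlapped, and all 8 others were lower. On the first principal component, which held 25.1% of the variance, both ZT6 and both ZT22 libraries lay between -38.1 and -27.9. No other library was lower than -4.71 on that component. In bulk RNA, fewer cells of a type and less RNA per cell cannot be told apart.

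Promoter windows are shown here for 6 clock genes and for Il6ra, the gene with the lowest p for a 24 h rhythm, because their times of day are the base of what follows. Each window runs from 250 bases before to 50 bases after a RefSeq start site (GRCm38.p6), is written 5′ to 3′ on the gene's strand, and has in capitals the matches found on either strand to the E-box CACGTG, the ROR element core AGGTCA or the D-box TTATGTAA or TTACGTAA.
Ciart, chr3:95882179-95882478, minus strand: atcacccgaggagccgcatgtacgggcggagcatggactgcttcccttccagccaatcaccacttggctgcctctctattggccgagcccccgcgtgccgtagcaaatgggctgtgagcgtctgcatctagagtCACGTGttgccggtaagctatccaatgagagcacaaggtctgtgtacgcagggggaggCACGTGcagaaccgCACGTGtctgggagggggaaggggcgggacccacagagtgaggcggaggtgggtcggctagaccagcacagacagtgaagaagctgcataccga
Per1, chr11:69098699-69098998, plus strand: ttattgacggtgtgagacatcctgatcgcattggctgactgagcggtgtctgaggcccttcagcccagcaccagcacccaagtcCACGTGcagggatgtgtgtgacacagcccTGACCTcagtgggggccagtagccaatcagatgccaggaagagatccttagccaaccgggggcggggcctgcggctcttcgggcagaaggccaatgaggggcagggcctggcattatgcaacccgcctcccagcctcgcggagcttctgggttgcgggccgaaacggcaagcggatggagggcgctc
Cry1, chr10:85185005-85185304, minus strand: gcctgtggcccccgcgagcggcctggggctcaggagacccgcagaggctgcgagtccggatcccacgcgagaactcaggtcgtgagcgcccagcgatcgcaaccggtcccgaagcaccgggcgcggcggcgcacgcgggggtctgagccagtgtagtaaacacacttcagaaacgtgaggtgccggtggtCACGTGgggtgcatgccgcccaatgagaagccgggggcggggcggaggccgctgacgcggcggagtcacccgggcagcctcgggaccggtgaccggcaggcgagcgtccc
Il6ra, chr3:89913147-89913446, minus strand: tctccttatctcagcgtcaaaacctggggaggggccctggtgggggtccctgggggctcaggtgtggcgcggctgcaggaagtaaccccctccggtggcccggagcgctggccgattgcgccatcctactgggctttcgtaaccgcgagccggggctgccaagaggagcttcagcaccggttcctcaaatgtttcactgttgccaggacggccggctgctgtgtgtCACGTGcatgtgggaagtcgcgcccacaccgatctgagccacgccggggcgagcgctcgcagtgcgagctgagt
Per3, chr4:151044616-151044915, minus strand: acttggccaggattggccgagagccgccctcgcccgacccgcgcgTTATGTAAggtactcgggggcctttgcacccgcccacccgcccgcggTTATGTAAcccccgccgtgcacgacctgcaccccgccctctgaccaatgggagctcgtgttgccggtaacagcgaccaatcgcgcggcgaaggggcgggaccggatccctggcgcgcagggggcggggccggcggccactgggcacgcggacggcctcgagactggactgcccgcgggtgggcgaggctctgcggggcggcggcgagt
Arntl, chr7:113207261-113207560, plus strand: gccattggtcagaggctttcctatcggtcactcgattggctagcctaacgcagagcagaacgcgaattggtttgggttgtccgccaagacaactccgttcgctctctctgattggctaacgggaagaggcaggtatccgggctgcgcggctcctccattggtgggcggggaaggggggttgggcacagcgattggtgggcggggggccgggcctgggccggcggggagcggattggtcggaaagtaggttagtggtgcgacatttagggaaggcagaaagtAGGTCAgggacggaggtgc
Nfil3, chr13:52980990-52981289, minus strand: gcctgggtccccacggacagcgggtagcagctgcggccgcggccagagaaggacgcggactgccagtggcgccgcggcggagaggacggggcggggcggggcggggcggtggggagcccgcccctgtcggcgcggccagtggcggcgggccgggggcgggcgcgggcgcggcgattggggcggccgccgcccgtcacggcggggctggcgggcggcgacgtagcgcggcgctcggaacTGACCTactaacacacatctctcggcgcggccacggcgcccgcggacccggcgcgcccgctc
The Ciart window held 3 E-boxes, which began 116, 58 and 44 bases before the start site, and the Per1 window held an E-box and, further in, a ROR core. Cry1 and Il6ra held 1 E-box each, Per3 held 2 D-boxes, and the Arntl and Nfil3 windows held a ROR core near the start site. Of 19 clock genes searched, 16 had a window, with 21 windows in all because some genes had more than 1. Arntl and Per1 each had another window, not shown, with no E-box, ROR core or D-box. A gene was counted if any of its windows held the motif, while the shares over all windows below are per window. An E-box was found in the windows of 5 of them (Per1, Cry1, Ciart, Bhlhe41 and Tef), a ROR core in 5 (Arntl, Clock, Nfil3, Per1 and Nr1d2) and a D-box in 1. Among all 32851 RefSeq windows of that length, 7.15% held the E-box, 16.3% the ROR core and 1.06% a D-box. The cAMP response element TGACGTCA, in 1.79% of all windows, was found in the Hlf window, starting at its base 242, and in no other clock window. The heat shock element GAANNTTC, in 7.86% of all windows, was found in none of them. These motifs are described by their letters only, and a match is neither a binding site nor a cause.

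Arntl, Clock, Npas2 and Nfil3 of the activator arm of the clock were highest from late night to early day. For all counts below, amplitude is the distance on the log2 scale from the mean to the peak of a fitted 24 h cosine, and a rhythm was called at an adjusted p under 0.05 by edgeR's quasi-likelihood test over all 17034 genes. By this rule 7.09% of all genes were rhythmic, and 5 of the 6 activator genes were. By the test of any difference between the 6 ZT, which called 29.8% of all genes, all 6 were called. Their median amplitude was 0.83, against 0.18 over all genes. Arntl (mm10 chr7:113207465-113314126, plus strand), the partner shared by CLOCK and NPAS2, measured 22.1 and 22.9 CPM at ZT2, 16.6 and 22.6 at ZT6, 1.87 and 1.26 at ZT10, 5.92 and 7.03 at ZT14, 27.6 and 20.9 at ZT18 and 29.2 and 24.9 at ZT22. Both ZT10 libraries were the lowest and both ZT14 libraries the next, and the 8 others did not overlap them. The fitted amplitude was 1.53 ± 0.35 with a peak at ZT23.2 ± 0.875 h (adjusted p = 0.0444), and this call was lost without either library of ZT10, ZT14, ZT18 or ZT22 or ZT2 replicate 1 (adjusted p up to 0.119). Its test over any ZT (adjusted p = 2.02e-05) held with each library left out in turn. Clock, its partner, measured 101 and 109.7 CPM at ZT2, 81.5 and 78 at ZT6, 50.5 and 44 at ZT10, 61 and 60.6 at ZT14, 94.1 and 87.5 at ZT18 and 90.2 and 90.1 at ZT22. It was lowest at ZT10 and highest at ZT2, with a peak at ZT23.3 ± 0.584 h, an amplitude of 0.49 ± 0.0741 and an adjusted p of 0.00673. Npas2, a Clock paralog, went from 2.14 and 1.59 CPM at ZT2 to 0.0489 and 0.0277 CPM at ZT14, with an amplitude of 2.14 ± 0.39 (adjusted p = 0.0150). Without ZT14 replicate 1 that p was 0.0536.

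Rora, a ROR receptor that activates through ROR elements, had an amplitude of only 0.18 ± 0.0910 (adjusted p = 0.380), although its ZT means differed (adjusted p = 0.00775), with both ZT2 libraries, at 92.8 and 95.8 CPM, the lowest. Nfil3, the repressor that competes for D-boxes, measured 29 and 54.2 CPM at ZT2, 27.8 and 21.5 at ZT6, 15.9 and 15.7 at ZT10, 19.9 and 14.6 at ZT14, 46.7 and 32.7 at ZT18 and 42 and 36.2 at ZT22. It was low at ZT10 and ZT14 and peaked at ZT22.7 ± 0.641 h (amplitude 0.77 ± 0.13, adjusted p = 0.0108).

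In the repressor arm 8 of 10 genes had a called rhythm and all 10 differed between ZT (7.09% and 29.8% of all genes). They came in an order, from Nr1d1 in the middle of the light phase to Cry1 in the middle of the dark phase. Nr1d1 (mm10 chr11:98767932-98775333, minus strand) measured 27.2 and 14.3 CPM at ZT2, 37 and 41.1 at ZT6, 27 and 17 at ZT10, 5.41 and 6.78 at ZT14, 1.20 and 2.03 at ZT18 and 7.75 and 11.1 at ZT22. Every light-phase library was above every dark-phase library, both ZT6 libraries were the highest and both ZT18 libraries the lowest. Its peak was at ZT5.68 ± 0.416 h with an amplitude of 1.90 ± 0.21 (adjusted p = 0.00135). Its paralog Nr1d2 followed, with 64.1 and 36.4 CPM at ZT2, 97.8 and 96.1 at ZT6, 174 and 161 at ZT10, 102 and 85.5 at ZT14, 35.8 and 45.1 at ZT18 and 48.7 and 64.2 at ZT22. Both ZT10 libraries were the highest, the peak was at ZT9.64 ± 0.589 h and the amplitude, 0.88 ± 0.14, was smaller than that of Nr1d1 (adjusted p = 0.00708). Bhlhe41, a repressor that binds E-boxes, peaked at ZT10.1 ± 0.814 h (adjusted p = 0.0346), a call lost without either library of ZT10, ZT14, ZT18 or ZT22 (adjusted p up to 0.121). Its relative Bhlhe40 was not called as a 24 h rhythm (adjusted p = 0.214), and its replicates lay far apart at ZT2 (131 and 61.8 CPM) and ZT14 (82.6 and 177 CPM).

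The repressors Ciart, Per3 and Per1 peaked around the change from light to dark. Ciart, a repressor of the ARNTL and CLOCK pair, measured 1.65 and 0.235 CPM at ZT2, 0.755 and 0.467 at ZT6, 17.4 and 18.1 at ZT10, 10.9 and 18.3 at ZT14, 2.24 and 3.09 at ZT18 and 0.218 and 1.02 at ZT22. Both ZT10 and both ZT14 libraries stood above the 8 others, and the highest ZT mean was 29.1-fold the lowest. The amplitude, 2.71 ± 0.37, was the largest of the clock lists (peak ZT12.4 ± 0.469 h, adjusted p = 0.00377). Per3, the gene with 2 D-boxes above, measured 17.1 and 4.77 CPM at ZT2, 16.2 and 11.7 at ZT6, 56.9 and 48.3 at ZT10, 38.1 and 35.7 at ZT14, 19.9 and 27.2 at ZT18 and 9.78 and 10.7 at ZT22. It was highest at ZT10, with a peak at ZT12.4 ± 0.545 h and an amplitude of 1.24 ± 0.18 (adjusted p = 0.00490). Per1 (mm10 chr11:69095217-69109960, plus strand) measured 4.55 and 1.17 CPM at ZT2, 2.21 and 2.11 at ZT6, 21.9 and 20.1 at ZT10, 19.8 and 26.2 at ZT14, 19.6 and 10.7 at ZT18 and 3.24 and 3.82 at ZT22. ZT10, ZT14 and ZT18 were high and ZT2, ZT6 and ZT22 low, and these 6 high libraries did not overlap the 6 low ones. The peak was at ZT13.9 ± 0.477 h and the amplitude 1.91 ± 0.24 (adjusted p = 0.00304).

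Per2 and the cryptochromes were later or flatter. Per2 measured 45.4 and 16.5 CPM at ZT2, 11.1 and 8.16 at ZT6, 34.4 and 33.6 at ZT10, 56.6 and 61.1 at ZT14, 60.8 and 75.2 at ZT18 and 9.83 and 9.38 at ZT22. It was highest at ZT18 and lowest at ZT6 and ZT22, but its ZT2 libraries lay far apart, and the cosine was not called (amplitude 0.97 ± 0.29, adjusted p = 0.114), while the test over any ZT was (adjusted p = 4.00e-04). Cry1 (mm10 chr10:85131700-85185064, minus strand) measured 11.5 and 17.9 CPM at ZT2, 8.83 and 10.4 at ZT6, 10.5 and 11.7 at ZT10, 23.5 and 25.1 at ZT14, 51.3 and 42.8 at ZT18 and 18.7 and 13.4 at ZT22. Both ZT18 libraries were the highest, well above both ZT14 libraries, and the peak fell at ZT17.8 ± 0.538 h (amplitude 1.01 ± 0.14, adjusted p = 0.00455). Cry2 had the smallest amplitude of the called repressors, 0.40 ± 0.0893, with values high at both ZT10 (42.2 and 40.5 CPM) and ZT18 (40.7 and 42.1 CPM) and lower between them at ZT14 (32.5 and 34.6 CPM). Its adjusted p of 0.0400 was lost without either library of ZT2, ZT10, ZT18 or ZT22 or ZT6 replicate 1 (adjusted p up to 0.0945).

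**Figure D1:**
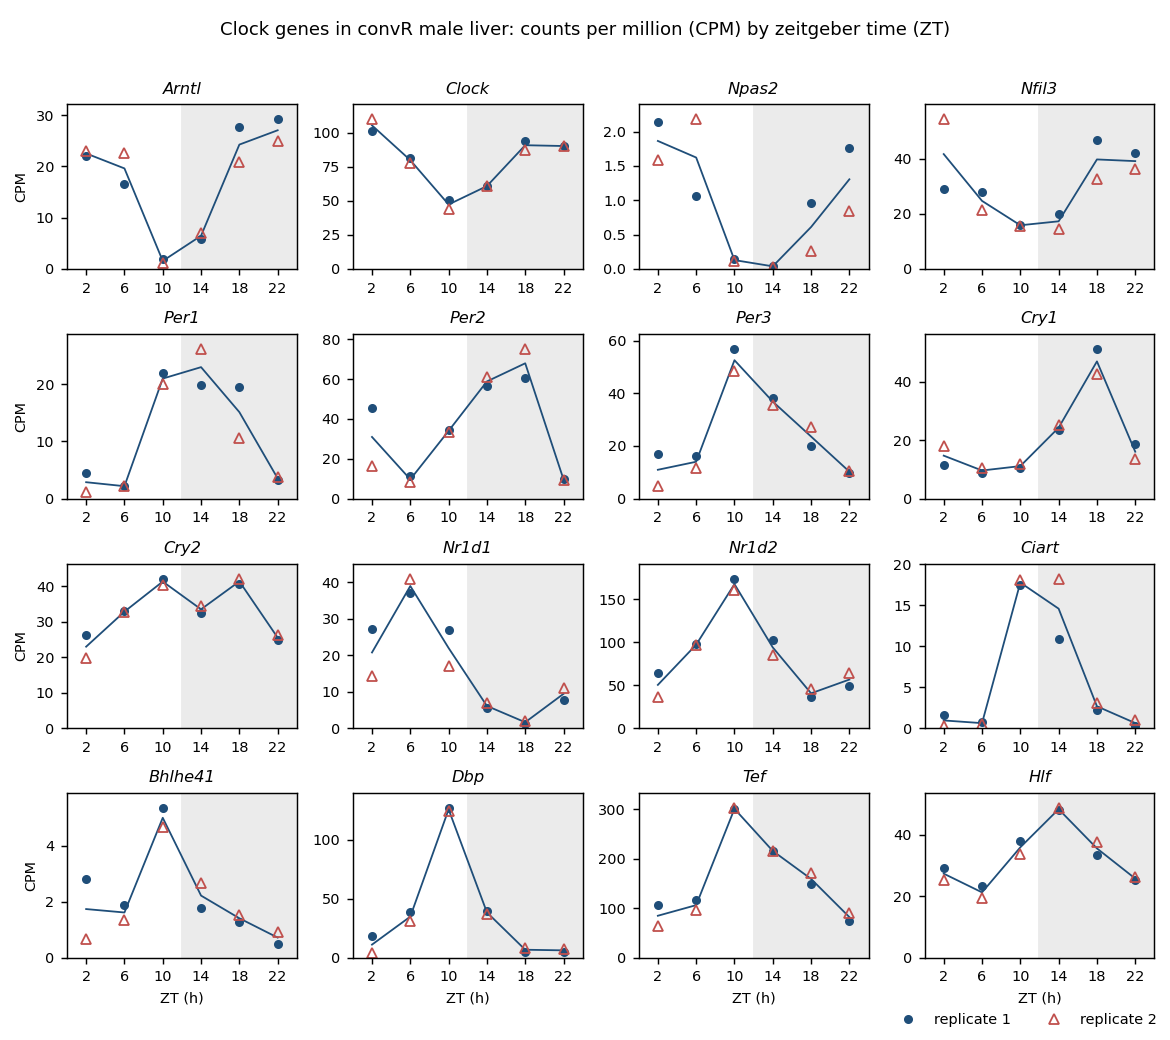
The level in CPM (y axes) of 16 clock genes at each zeitgeber time (h, x axis), with replicate 1 as filled circles, replicate 2 as open triangles, a line through the ZT means and the dark phase shaded. Arntl, Clock, Npas2 and Nfil3 had their lows at ZT10 or ZT14, while Dbp, Per3, Tef and Nr1d2 were highest at ZT10 and Cry1 at ZT18. The 2 ZT2 libraries lay apart for Dbp, Per2 and Nfil3.

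All 3 PAR bZIP factors were rhythmic (7.09% of all genes were), one after another. Dbp, which binds D-boxes and is a standard readout of the ARNTL and CLOCK pair, measured 18.4 and 3.81 CPM at ZT2, 38.7 and 30.9 at ZT6, 127 and 125 at ZT10, 39.9 and 37 at ZT14, 5.11 and 8.44 at ZT18 and 4.96 and 7.54 at ZT22. Both ZT10 libraries were more than 3-fold above every other library. The amplitude was 2.19 ± 0.22 and the peak ZT9.76 ± 0.385 h (adjusted p = 0.00107). Tef followed with 106 and 63.1 CPM at ZT2, 116 and 96.7 at ZT6, 299 and 302 at ZT10, 216 and 215 at ZT14, 148 and 170.1 at ZT18 and 74.1 and 89.9 at ZT22, again highest at ZT10 but slower to fall, so that its peak was at ZT12.4 ± 0.422 h and its amplitude 0.97 ± 0.11 (adjusted p = 0.00133). Hlf was the last and flattest, highest at ZT14 with 48 and 48.6 CPM, with an amplitude of 0.50 ± 0.0745 and a peak at ZT14.5 ± 0.574 h (adjusted p = 0.00628). The fitted peaks came in the order Dbp, Tef, Hlf, each later than the one before by more than their standard errors. Nfil3, which acts on the same sites, was lowest at the times when Tef was highest.

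Of 13 genes known as outputs of the clock, 10 were rhythmic and all 13 differed between ZT (7.09% and 29.8% of all genes). Their median amplitude was 0.95. Usp2, a deubiquitinase, measured 5.82 and 3.08 CPM at ZT2, 3.46 and 2.18 at ZT6, 45.8 and 42.2 at ZT10, 36.8 and 48.9 at ZT14, 23.6 and 23.7 at ZT18 and 4.99 and 6.06 at ZT22. Its highest ZT mean was 15.6-fold its lowest, and the peak was at ZT13.7 ± 0.451 h (amplitude 2.09 ± 0.25, adjusted p = 0.00219). Wee1, a kinase that holds back mitosis, went from 2.32 and 2.02 CPM at ZT6 to 17.1 and 19.8 CPM at ZT10 (amplitude 1.44 ± 0.22, adjusted p = 0.00739). Nampt, the rate-limiting enzyme of NAD salvage, and Por, the electron donor of cytochromes P450, peaked at ZT13.4 ± 0.415 h and ZT13.2 ± 0.374 h. Por measured 182 and 186 CPM at ZT2, 194 and 197 at ZT6, 482 and 373 at ZT10, 579 and 444 at ZT14, 264 and 329.8 at ZT18 and 179.6 and 201 at ZT22, with all 4 libraries of ZT10 and ZT14 above the rest. Rgs16, a regulator of G protein signalling, had one of the largest amplitudes, 2.50 ± 0.35, and went from 40.3 and 49.6 CPM at ZT10 to 1.33 and 0.786 CPM at ZT22, although its ZT6 libraries (2.60 and 19.8 CPM) disagreed. Elovl3, a fatty acid elongase, ran opposite to these, with a peak at ZT23.7 ± 0.638 h (amplitude 1.48 ± 0.25, adjusted p = 0.0105).

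Alas1, Noct and Slc45a3 were not called by the cosine. Alas1, the first enzyme of heme synthesis, measured 642 and 663 CPM at ZT2, 79 and 49.8 at ZT6, 717 and 899 at ZT10, 1143 and 625 at ZT14, 563 and 546 at ZT18 and 125 and 143 at ZT22. It was low at ZT6 and ZT22 and high at the 4 other times, so the cosine found an amplitude of 0.66 ± 0.39 (adjusted p = 0.478), while the ZT differed with an adjusted p of 4.39e-05. Noct, a nocturnin that acts on NADP(H), was highest at ZT14 with 49.5 and 87.1 CPM (rhythm adjusted p = 0.103, any ZT 0.00217). Slc45a3 was low at ZT10 alone and is described with the dark phase below.

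Across the genome the 1208 called genes had amplitudes from 0.15 to 8.16 with a median of 0.41 and quartiles of 0.29 and 0.66, and 118 reached an amplitude of 1. Their fitted peaks fell into 2 groups: 272 peaked from ZT12 to ZT14, with 148 and 138 in the 2 h before and after, and 147 and 130 peaked from ZT0 to ZT2 and from ZT2 to ZT4. The fewest, 29, peaked from ZT6 to ZT8, and 34 from ZT18 to ZT20. The count depended on single libraries: it was 518 without ZT14 replicate 1, 588 and 638 without ZT10 replicate 1 and 2, and 735 without ZT18 replicate 1. It was 325 without the 2 libraries with pancreas or muscle markers. DESeq2 called 2517.

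**Figure D2:**
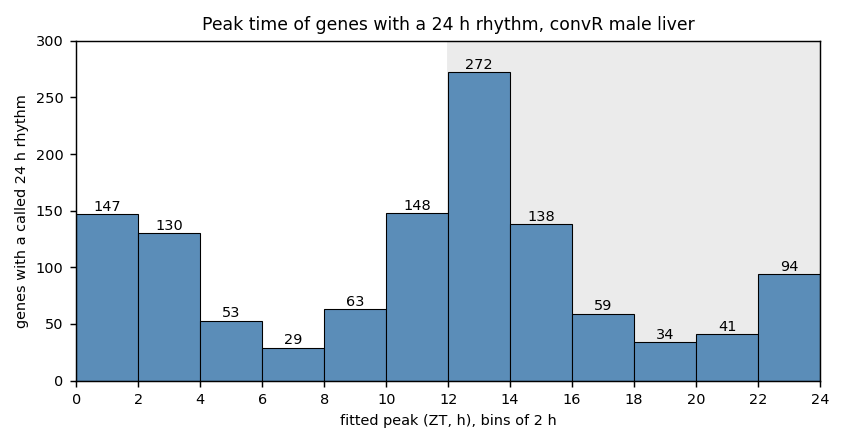
Number of genes with a called 24 h rhythm (y axis) by fitted peak in bins of 2 h (x axis, ZT in h), with the dark phase shaded and the count above each bar. The bars are highest from ZT12 to ZT14, at 272 genes, and again from ZT0 to ZT4, and lowest from ZT6 to ZT8, at 29.

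Among the 10 genes of lowest adjusted p for a rhythm were Il6ra, Nrg4, Slc6a9, Pdxk, Por, Mthfd1l, Pdk4, Bnip3 and Gys2, and each of these stayed called with any library left out. Il6ra (mm10 chr3:89864059-89913196, minus strand), the receptor chain for interleukin 6, measured 21.7 and 20.1 CPM at ZT2, 27.6 and 29.97 at ZT6, 40.5 and 41.3 at ZT10, 75.3 and 74.6 at ZT14, 48.5 and 44.5 at ZT18 and 29 and 27.3 at ZT22. The replicates differed little at each ZT, the 2 ZT14 libraries were the highest and the ZT2 libraries the lowest. Its amplitude was 0.85 ± 0.0658 with a peak at ZT14.1 ± 0.296 h (adjusted p = 4.76e-04). Nrg4, a secreted ligand of ERBB receptors, measured 5.33 and 4.28 CPM at ZT2, 5.08 and 4.89 at ZT6, 13.7 and 10.8 at ZT10, 17.6 and 20.9 at ZT14, 9.35 and 8.57 at ZT18 and 5.01 and 3.99 at ZT22, with a peak at ZT13.4 ± 0.352 h and an amplitude of 1.09 ± 0.10. Its ZT14 libraries were the highest, and ZT2, ZT6 and ZT22 were all low. Gys2, the liver glycogen synthase, measured 119.9 and 124 CPM at ZT2, 134 and 118 at ZT6, 290.1 and 362 at ZT10, 349.9 and 277 at ZT14, 186 and 190.4 at ZT18 and 101 and 107 at ZT22. It was high at ZT10 and ZT14 and low at ZT22, ZT2 and ZT6, with a peak at ZT12.5 ± 0.382 h and an amplitude of 0.90 ± 0.0899. Bnip3, a mitophagy receptor, Slc6a9, a glycine carrier, Pdxk, a kinase that makes pyridoxal phosphate, and Mthfd1l, a mitochondrial folate enzyme, peaked between ZT12.3 and ZT14.6 with amplitudes of 0.74, 0.69, 0.46 and 1.17. Pdk4, the kinase that turns off pyruvate dehydrogenase, ran opposite to them. It measured 9.22 and 17.9 CPM at ZT2, 6.93 and 9.71 at ZT6, 2.51 and 2.82 at ZT10, 2.64 and 3.21 at ZT14, 7.06 and 6.31 at ZT18 and 16.2 and 13.4 at ZT22, with the lowest values at ZT10 and ZT14 and a peak at ZT0.219 ± 0.375 h (amplitude 1.33 ± 0.13, adjusted p = 0.00103).

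Several of the largest fitted amplitudes came from 1 library or 1 ZT. Ctrb1, a pancreatic chymotrypsinogen, had 55.8 and 0.129 CPM at ZT18 and at most 0.269 CPM elsewhere, so its amplitude of 8.16 ± 1.41 rested on the ZT18 replicate 1 library, without which its adjusted p was 0.542. Ctrl, another pancreatic protease, had 18.8 and 0.154 CPM at ZT18, and its fitted amplitude without that library was 0.24 (adjusted p = 0.917). Ttn, the giant muscle protein titin, had 0.634 and 88.1 CPM at ZT10 and at most 1.55 CPM elsewhere (adjusted p = 0.0480, lost without either library of ZT2, ZT14, ZT18 or ZT22 or ZT10 replicate 2). Lcn2 and Prtn3 were highest at ZT22 and are given with the acute phase. Of the remaining named genes, Mfsd2a, a carrier of lysophosphatidylcholine, measured 6.88 and 3.94 CPM at ZT2, 1.59 and 1.49 at ZT6, 50.4 and 31.3 at ZT10, 64.1 and 102 at ZT14, 29.8 and 29.6 at ZT18 and 2.59 and 7.75 at ZT22. ZT14 was highest and ZT6 lowest, with a peak at ZT14.1 ± 0.523 h and an amplitude of 2.36 ± 0.33 (adjusted p = 0.00446). Chrna4, a nicotinic receptor subunit, was highest at ZT6, where its libraries (3.91 and 23.6 CPM) differed 6-fold (amplitude 2.62 ± 0.40, adjusted p = 0.00667). Acot3, a peroxisomal thioesterase, had an amplitude of 2.20 ± 0.37 (adjusted p = 0.0110, and 0.0504 without ZT14 replicate 1). Ptk6, a tyrosine kinase, had an amplitude of 1.54 ± 0.29 with a peak at ZT0.272 ± 0.693 h (adjusted p = 0.0171, lost without ZT10 replicate 1 or ZT14 replicate 1).

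Between the phases, 626 genes differed (3.68% of those tested), 336 higher in the dark (1.97%) and 290 higher in the light (1.70%). The median difference over all genes was 0.0034 on the log2 scale. This contrast averages the 3 ZT of each phase, and the spread is that within a ZT. With phase as the only term, where change within a phase counts as spread, 1 gene was called. The count was 227 without ZT22 replicate 2 and between 258 and 401 without ZT6 replicate 2, ZT10 replicate 1, ZT14 replicate 1, either ZT18 library or ZT22 replicate 1. It was 165 without the libraries with pancreas or muscle markers. Under scaling to the total count alone, 44.0% of the calls were higher in the dark, against 53.7% here.

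Genes higher in the dark included steroid-responsive genes. Fkbp5 (mm10 chr17:28399094-28517527, minus strand), a co-chaperone of the glucocorticoid receptor, measured 26.8 and 19.3 CPM at ZT2, 19 and 20.2 at ZT6, 28.1 and 39.1 at ZT10, 142 and 128 at ZT14, 63.9 and 64.5 at ZT18 and 24.1 and 30.1 at ZT22. ZT14 was the highest and ZT18 the next, while ZT22 was back among the light-phase values, so the phases overlapped. The dark minus light difference was 1.33 ± 0.10 (adjusted p = 1.29e-04), with light and dark means of 25.4 ± 7.78 and 75.5 ± 49.3 CPM (SD, n = 6 each). Cdkn1a, which encodes the cell cycle inhibitor p21, measured 2.11 and 1.70 CPM at ZT2, 0.807 and 0.978 at ZT6, 0.524 and 0.227 at ZT10, 1.57 and 3.79 at ZT14, 5.94 and 2.29 at ZT18 and 2.86 and 2.56 at ZT22. It was lowest at ZT10 and highest at ZT18, and the difference, 1.90 ± 0.30, was the largest of the named dark genes (adjusted p = 0.00583). Zbtb16, a zinc finger repressor, was 1.38 ± 0.25 higher in the dark (adjusted p = 0.0136), with 54.8 and 63.5 CPM at ZT14. Tsc22d3, which encodes the glucocorticoid-induced leucine zipper, was 1.12 ± 0.16 higher (adjusted p = 0.00502). Of the 12 genes on the list of glucocorticoid-responsive genes, 5 were higher in the dark and none in the light (1.97% and 1.70% of all genes). The rhythm was called for 4 (7.09% of all genes), and the median difference was 0.64. Without the libraries with pancreas or muscle markers, 1 was rhythmic and 3 were higher in the dark. These counts were 2 and 3 without ZT6, and 6 and 6 without ZT22. The rhythm calls of Cdkn1a and Zbtb16 were lost in some fits with 1 library left out (adjusted p up to 0.0960 and 0.0750). The last of the 5 genes higher in the dark, Mt2, a metal-binding metallothionein, measured 0.688 and 1.17 CPM at ZT2, 3.98 and 4.31 at ZT6, 3.44 and 1.48 at ZT10, 7.36 and 2.38 at ZT14, 0.573 and 1.08 at ZT18 and 74.7 and 51.8 at ZT22. Only ZT22 was high, and without ZT22 its difference was -0.045 (adjusted p = 0.958).

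The other named dark genes included a clock gene, 2 carriers and a noncoding RNA. Slc45a3, a sugar transporter, measured 40.1 and 38.7 CPM at ZT2, 37.1 and 36.9 at ZT6, 13.6 and 12.2 at ZT10, 52.7 and 68.8 at ZT14, 81.3 and 61.1 at ZT18 and 51.6 and 52.2 at ZT22. All dark libraries were above all light ones, of which ZT10 was the lowest, and the difference was 1.21 ± 0.0821 (adjusted p = 1.29e-04). Cry1, described above, was 1.19 ± 0.13 higher in the dark (adjusted p = 8.92e-04), and Mfsd2a 1.74 ± 0.24 higher (adjusted p = 0.00338). Sftpa1, a surfactant collectin, and Tnnc1, a troponin, were low genes with 2.91 and 2.16 CPM at ZT14 and 2.68 and 2.75 CPM at ZT18, and both differed by 1.48 ± 0.19. Neat1, the long noncoding RNA of paraspeckles, measured 697 and 299 CPM at ZT2, 807 and 969.7 at ZT6, 285 and 293 at ZT10, 1161 and 1277 at ZT14, 652 and 1575 at ZT18 and 1239 and 1209.5 at ZT22. Its lowest libraries were at ZT2 and ZT10, its ZT18 libraries disagreed, and the difference was 1.25 ± 0.21 (adjusted p = 0.00972).

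Genes higher in the light were led by Nr1d1, at -2.51 ± 0.18 dark minus light (adjusted p = 1.29e-04). Chrna4 and Rgs16 differed by -2.51 ± 0.52 and -2.39 ± 0.45. Both calls were lost when some single libraries were left out, for Chrna4 without either library of ZT18 or ZT10 replicate 1, ZT14 replicate 1 or ZT22 replicate 2 (adjusted p up to 0.0781) and for Rgs16 without either library of ZT18 or ZT22 replicate 2 (up to 0.0733). Dbp differed by -1.62 ± 0.27 (adjusted p = 0.00860). Arrdc3, an arrestin-domain protein, measured 237 and 219.6 CPM at ZT2, 310.2 and 428 at ZT6, 418 and 400.1 at ZT10, 88.7 and 104 at ZT14, 75 and 113 at ZT18 and 134 and 219 at ZT22. Every light-phase library was above every dark-phase library, ZT6 and ZT10 being the highest, and the difference was -1.47 ± 0.13 (adjusted p = 3.18e-04). Depp1, a gene known to respond to FOXO factors, measured 27.6 and 43.7 CPM at ZT2, 95.1 and 159.6 at ZT6, 67.1 and 42.4 at ZT10, 4.16 and 11.5 at ZT14, 34.1 and 25.8 at ZT18 and 77.4 and 51.6 at ZT22. It was lowest at ZT14 and highest at ZT6, and the phases overlapped through ZT22 (difference -1.34 ± 0.24, adjusted p = 0.0119, and 0.0572 without ZT22 replicate 2). Erbb4, a receptor of neuregulins such as NRG4, went from 12.8 and 15.1 CPM at ZT2 to 1.82 and 2.16 CPM at ZT18 (difference -1.51 ± 0.18, adjusted p = 0.00198). Hectd2os, a noncoding RNA, and Raet1d, a ligand of the NKG2D receptor, differed by -1.22 ± 0.21 and -1.21 ± 0.27, and the Raet1d call was lost without either library of ZT14, ZT18 or ZT22 or ZT2 replicate 1 or ZT6 replicate 2 (adjusted p up to 0.101).

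**Figure D3:**
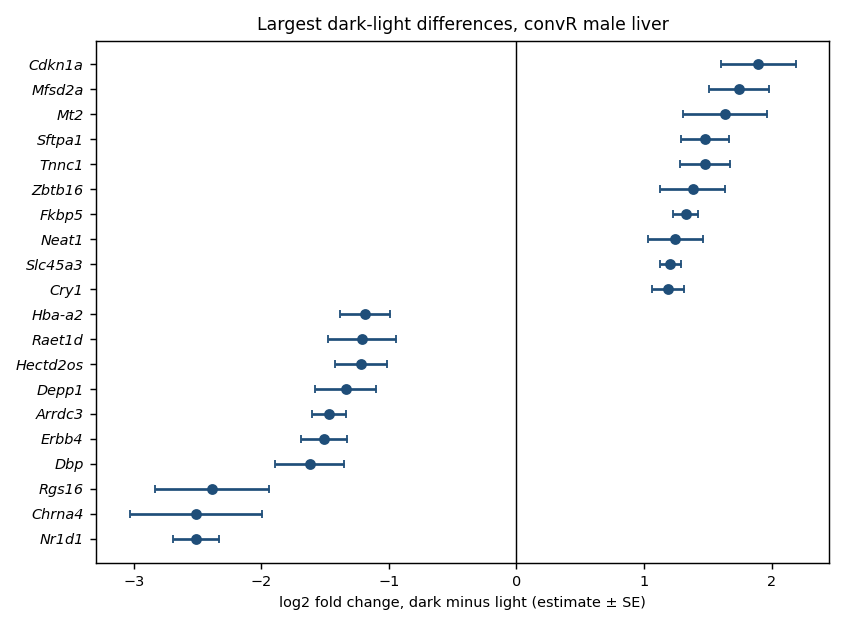
Dark minus light log2 fold change (x axis) with its standard error for the 10 named genes highest and the 10 lowest among those called, in order of size. Nr1d1 and Chrna4 lie near -2.5 and Cdkn1a is the highest, and the error bars of Chrna4, Rgs16 and Mt2 are the widest.

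The light-phase list also held Hba-a2, an alpha globin gene, at -1.19 ± 0.20 (adjusted p = 0.00860). Of 7 erythroid markers, 5 were higher in the light and none in the dark (1.70% and 1.97% of all genes). Without ZT6, 1 of the 6 tested was higher in the light. Without the libraries with pancreas or muscle markers, 1 of the 7 was. The list summed to between 158 and 315 CPM in the light libraries and between 152 and 172 CPM in the dark ones. All 7 markers had their highest mean at ZT6. Alas2, the erythroid enzyme of heme synthesis, was not called (difference -0.11 ± 0.0570, adjusted p = 0.318). The part of blood cell content in the light-phase genes was not tested.

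Genes of cholesterol synthesis were most often highest in the middle of the light phase. Of 25 genes tested, 13 were rhythmic, 7 were higher in the light and none in the dark (7.09%, 1.70% and 1.97% of all genes). The highest mean was at ZT6 for 14, where 15.1% of all genes had theirs. Without ZT6, 1 was higher in the light, and without ZT22, 14 were. With single libraries left out, the calls in the light were lost for Fdft1 in all but 2 of 12 fits (adjusted p up to 0.146), and in some fits for Fdps, Msmo1, Sc5d and Stard4 (up to 0.0884, 0.108, 0.0654 and 0.0544). Hmgcs1 (mm10 chr13:119690379-119708260, plus strand), the synthase that feeds the pathway, measured 324 and 361 CPM at ZT2, 421 and 706 at ZT6, 159 and 147 at ZT10, 91.8 and 119 at ZT14, 111 and 89.5 at ZT18 and 553 and 351 at ZT22. ZT22, ZT2 and ZT6 were high and ZT10, ZT14 and ZT18 low, with no overlap between these sets of 6 libraries. The peak was at ZT2.73 ± 0.627 h, the amplitude 1.33 ± 0.22 (adjusted p = 0.00973) and the dark minus light difference -0.87 ± 0.15 (adjusted p = 0.00989). Fdps and Nsdhl, enzymes of the middle and the end of the pathway, had peaks at ZT2.76 ± 0.527 h and ZT3.58 ± 0.643 h and amplitudes of 1.01 ± 0.14 and 0.76 ± 0.13 (adjusted p = 0.00405 and 0.0109). Mvk, the mevalonate kinase, measured 22.3 and 28.7 CPM at ZT6 against 8.12 and 9.99 CPM at ZT14 (amplitude 0.93 ± 0.16). Dhcr7, which makes the last double-bond reduction, measured 58.4 and 79.7 CPM at ZT6 against 20.1 and 35.4 CPM at ZT14 (amplitude 0.79 ± 0.13). Without the libraries with pancreas or muscle markers, 2 of the 25 were rhythmic and 3 were higher in the light, while 14 differed between ZT against 21 before.

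Of 17 lipogenic genes, 5 were rhythmic and 2, Elovl5 and Gpam, were called higher in the light (7.09% and 1.70% of all genes). Each of these calls held in only 2 of the 12 fits with 1 library left out (adjusted p up to 0.148 for Elovl5 and 0.162 for Gpam), and none of the 17 was called higher in the light without ZT6. The rhythm calls of Acly, Gpam and Fads2 were also lost in some of these fits (adjusted p up to 0.111, 0.0852 and 0.0779), and 2 of the 17 were rhythmic without the libraries with pancreas or muscle markers. Insig2, which holds the sterol sensor SCAP, and with it SREBP, in the endoplasmic reticulum, measured 192 and 212 CPM at ZT2, 184 and 266 at ZT6, 72.2 and 58.7 at ZT10, 82 and 91.4 at ZT14, 129 and 122 at ZT18 and 212 and 192 at ZT22, lowest at ZT10 and ZT14 (peak ZT1.20 ± 0.673 h, amplitude 0.83 ± 0.15, adjusted p = 0.0132). Elovl5, an elongase of polyunsaturated fatty acids, had an amplitude of 0.64 ± 0.12 (adjusted p = 0.0171, and 0.0544 without ZT14 replicate 1). Fasn, the fatty acid synthase, was not called (rhythm adjusted p = 0.341), and its replicates differed at ZT2 (2761 and 1259 CPM) and ZT14 (489.9 and 1781 CPM). The ZT14 replicates also lay apart for Srebf1 (259.7 and 612 CPM), the SREBP gene of this pathway, and for Thrsp (417 and 1181 CPM), a lipogenic response gene.

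Among bile acid genes, 4 of 17 were rhythmic (7.09% of all genes). Abcb11, Hsd3b7 and Slco1b2, 3 of the 17, were called higher in the light (1.70% of all genes). Both counts were 2 without the libraries with pancreas or muscle markers. The light calls were lost in some fits with 1 library left out for Hsd3b7 (adjusted p up to 0.0757) and in all but 2 of 12 for the uptake transporter Slco1b2 (up to 0.108). Abcb11, the bile salt export pump, measured 992 and 1086 CPM at ZT2, 1099 and 1290.1 at ZT6, 845 and 902 at ZT10, 466 and 584 at ZT14, 666 and 717 at ZT18 and 899 and 833 at ZT22. It was lowest at ZT14 (peak ZT3.92 ± 0.596 h, amplitude 0.50 ± 0.0778, adjusted p = 0.00739), and its dark minus light difference was -0.59 ± 0.0765 (adjusted p = 0.00275). Hsd3b7, an enzyme early in bile acid synthesis, peaked at ZT2.47 ± 0.495 h (amplitude 0.56 ± 0.0725, adjusted p = 0.00316). Cyp7a1, which makes the first and limiting step from cholesterol to bile acids, measured 222 and 509 CPM at ZT2, 253 and 157 at ZT6, 172 and 132 at ZT10, 370.1 and 281 at ZT14, 315 and 333 at ZT18 and 154 and 111 at ZT22. Its ZT2 replicates lay apart, no time stood out, and the rhythm was not called (amplitude 0.20 ± 0.26, adjusted p = 0.850).

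Genes of PPARα and fatty acid oxidation had their highest mean at ZT14 in 15 of 30, where 12.0% of all genes had theirs. Of the 30, 7 were rhythmic, 4 were higher in the dark and none in the light (7.09%, 1.97% and 1.70% of all genes). Ppara itself, a nuclear receptor for fatty acids, measured 115 and 117 CPM at ZT2, 135 and 111 at ZT6, 244 and 214 at ZT10, 199 and 182 at ZT14, 143 and 152 at ZT18 and 127 and 149 at ZT22, highest at ZT10 (peak ZT12.7 ± 0.675 h, adjusted p = 0.0133). Cpt1a, the gate of fatty acids into mitochondria, peaked at ZT12.7 ± 0.704 h with 583 and 473 CPM at ZT14 (amplitude 0.50 ± 0.0931, adjusted p = 0.0166, and 0.0575 without ZT14 replicate 1). Plin5, a lipid droplet protein, measured 45.8 and 50.2 CPM at ZT2, 28.1 and 27.3 at ZT6, 31.6 and 33.4 at ZT10, 69.5 and 75.8 at ZT14, 65.1 and 71.9 at ZT18 and 38.9 and 52.6 at ZT22. ZT14 and ZT18 were the highest, and the dark minus light difference was 0.81 ± 0.0697 (adjusted p = 2.15e-04). Angptl4, an inhibitor of lipoprotein lipase, was 1.07 ± 0.20 higher in the dark (adjusted p = 0.0154), which was lost without ZT6 replicate 2 or ZT22 replicate 2 (adjusted p up to 0.0621). The β-oxidation enzymes Acadm, Acadvl, Hadha and Hadhb had amplitudes from 0.10 to 0.13, and none had a called rhythm. Without the libraries with pancreas or muscle markers, 3 of the 30 were rhythmic and 1 was higher in the dark.

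Of 18 glucose genes, 5 were rhythmic (1 without the libraries with pancreas or muscle markers), 2 were higher in the dark and 1 in the light. Over all genes the shares of these calls were 7.09%, 1.97% and 1.70%. Pck1, the enzyme that starts gluconeogenesis, measured 938 and 518 CPM at ZT2, 2064 and 863 at ZT6, 2921 and 2409 at ZT10, 3372 and 3723 at ZT14, 3442 and 2114 at ZT18 and 1633 and 2334 at ZT22. It was highest at ZT14 and lowest at ZT2 (peak ZT14.6 ± 0.722 h, amplitude 0.99 ± 0.19, adjusted p = 0.0187). Its dark minus light difference of 0.95 ± 0.21 (adjusted p = 0.0309) was lost without either library of ZT10, ZT14 or ZT22 or ZT2 replicate 2, ZT6 replicate 2 or ZT18 replicate 1 (adjusted p up to 0.116). Ppp1r3b, a subunit that brings a phosphatase to glycogen, measured 499 and 363 CPM at ZT2, 131 and 146 at ZT6, 244 and 243 at ZT10, 479 and 613 at ZT14, 458 and 478 at ZT18 and 271 and 323 at ZT22. It was lowest at ZT6, its dark libraries were higher by 0.81 ± 0.0844 (adjusted p = 7.86e-04), and ZT2 overlapped them. Slc2a2, the liver glucose transporter, was highest at ZT10 (510.1 and 472 CPM) and lowest at ZT22 (209.8 and 198 CPM), with a peak at ZT10.6 ± 0.674 h (adjusted p = 0.0132).

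Drug metabolism genes were most often highest late in the light phase. Of 21, 9 were rhythmic (4 without the libraries with pancreas or muscle markers) and 2 were higher in the light, against 7.09% and 1.70% of all genes. The highest mean was at ZT10 for 10 of them, where 15.8% of all genes had theirs. Cyp2a5, which oxidises coumarin, measured 215 and 188 CPM at ZT2, 336 and 341 at ZT6, 873 and 1074 at ZT10, 1029.8 and 553 at ZT14, 484 and 587 at ZT18 and 135 and 119.8 at ZT22. ZT10 and ZT14 were high and ZT22 the lowest, with a peak at ZT12.2 ± 0.392 h and an amplitude of 1.43 ± 0.15 (adjusted p = 0.00107). Nr1i3, the receptor CAR that controls such genes, measured 81.7 and 139 CPM at ZT2, 113 and 95 at ZT6, 291 and 278 at ZT10, 314 and 239 at ZT14, 178 and 209 at ZT18 and 154 and 152 at ZT22, with a peak at ZT13.9 ± 0.635 h and an amplitude of 0.76 ± 0.13 (adjusted p = 0.0102). The exporters Abcc2 and Abcb1a peaked at ZT10.7 ± 0.517 h and ZT11.5 ± 0.634 h (adjusted p = 0.00380 and 0.0102). Cyp2c55 was higher in every light-phase library than in any dark-phase library, by -1.05 ± 0.12 dark minus light (adjusted p = 0.00162). Of 18 genes of amino acid and urea metabolism, 5 were rhythmic (7.09% of all genes), and 2 without the libraries with pancreas or muscle markers. Tdo2, which breaks down tryptophan, peaked at ZT11.5 ± 0.497 h (amplitude 0.45 ± 0.0589, adjusted p = 0.00319), and Asl, a urea cycle enzyme, was 0.38 ± 0.0589 higher in the dark (adjusted p = 0.00564), with 796 and 774 CPM at ZT18. Hamp, which encodes the iron hormone hepcidin, measured 127 and 231 CPM at ZT2, 153 and 119.9 at ZT6, 380.2 and 370.1 at ZT10, 322 and 403 at ZT14, 345 and 396 at ZT18 and 124 and 186 at ZT22. It was high from ZT10 to ZT18 (peak ZT14.1 ± 0.700 h, amplitude 0.80 ± 0.15, adjusted p = 0.0162). Of 10 genes of iron and heme, Hamp and Fech were the rhythmic ones (7.09% of all genes were). Fech was called in only 4 of the 12 fits with 1 library left out (adjusted p up to 0.114). Neither Hamp nor Fech was called without the libraries with pancreas or muscle markers.

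Heat shock genes were mostly highest at ZT18, with a further high in 1 of the ZT2 libraries. Of 16, 14 differed between ZT and none had a called 24 h rhythm or phase difference (7.09% and 3.68% of all genes), while 10 were highest at ZT18 and 4 at ZT2, where 19.5% and 23.2% of all genes had their highest mean. Hspa8, the constitutive HSP70, measured 1708 and 966 CPM at ZT2, 503 and 671 at ZT6, 567 and 587 at ZT10, 1070.4 and 1074 at ZT14, 1812 and 1807 at ZT18 and 309 and 329.9 at ZT22. ZT18 and ZT2 were high and ZT22 the lowest, with ZT14 between (any ZT adjusted p = 1.59e-04). Hspa1b, the inducible HSP70, measured 99 and 18.9 CPM at ZT2, 4.45 and 3.25 at ZT6, 7.36 and 7.96 at ZT10, 38.5 and 35.5 at ZT14, 31.5 and 45.6 at ZT18 and 3.54 and 3.12 at ZT22. Its ZT2 replicates differed 5-fold, ZT14 and ZT18 were high, and ZT6 and ZT22 were low (any ZT adjusted p = 8.67e-04). Hsp90aa1, the inducible HSP90, measured 428 and 190.4 CPM at ZT2, 257 and 220.2 at ZT6, 91.4 and 93.3 at ZT10, 183 and 169.9 at ZT14, 472 and 414 at ZT18 and 203 and 177 at ZT22, with ZT18 the highest and ZT10 the lowest. Hsf1, the factor that drives these genes, was not called (any ZT adjusted p = 0.0804). In each of the inducible genes named the ZT2 replicate 1 library was above replicate 2. Without ZT22, 12 of the 16 had a called 24 h rhythm and 7 were higher in the dark. The cold-inducible RNA-binding gene Cirbp ran against them. It measured 5.63 and 10.1 CPM at ZT2, 20.1 and 19.1 at ZT6, 17 and 17.5 at ZT10, 11.7 and 13.3 at ZT14, 7.24 and 7.65 at ZT18 and 18.9 and 18.1 at ZT22, lowest at ZT2 and ZT18 (any ZT adjusted p = 0.00116). Its relative Rbm3 was the one of these 2 genes with a called rhythm (peak ZT12.9 ± 0.763 h, amplitude 0.34 ± 0.0670, adjusted p = 0.0242), lost without either library of ZT10 or ZT14 (up to 0.0858) and without the libraries with pancreas or muscle markers.

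Chaperones of the endoplasmic reticulum were highest at ZT2 in 13 of 19 genes, where 23.2% of all genes had their highest mean. Of the 19, 6 were rhythmic and 14 differed between ZT (7.09% and 29.8% of all genes). Hspa5 (BiP), the master chaperone of that organelle, measured 2267 and 1269 CPM at ZT2, 1152 and 833 at ZT6, 435 and 666 at ZT10, 729 and 929.7 at ZT14, 1954 and 1403 at ZT18 and 751 and 864 at ZT22. ZT2 and ZT18 were high and ZT10 low (any ZT adjusted p = 0.00554), and the rhythm was not called (adjusted p = 0.240). Calr, a lectin chaperone, was called, with a peak at ZT0.290 ± 0.650 h and an amplitude of 0.38 ± 0.0653 (adjusted p = 0.0111). Sdf2l1 measured 108 and 55.5 CPM at ZT2, 63.5 and 40.5 at ZT6, 28.9 and 27.4 at ZT10, 20.8 and 26.4 at ZT14, 85.5 and 58.5 at ZT18 and 69.3 and 65.4 at ZT22, lowest at ZT14 (amplitude 0.86 ± 0.16, adjusted p = 0.0178, lost without either library of ZT10 or ZT14 replicate 1). The rhythm calls of the disulfide isomerases Pdia3, Pdia4 and Pdia6 held in 2, 3 and 7 of the 12 fits with 1 library left out (adjusted p up to 0.109, 0.132 and 0.0854), and that of the co-chaperone Dnajb11 in 9 (up to 0.0754). Without the libraries with pancreas or muscle markers 4 of the 19 were rhythmic, and without ZT22 11 were. Syvn1, the ligase that clears misfolded proteins, went from 155 and 79.6 CPM at ZT2 to 19.9 and 19.6 CPM at ZT10 (any ZT adjusted p = 5.95e-04).

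**Figure D4:**
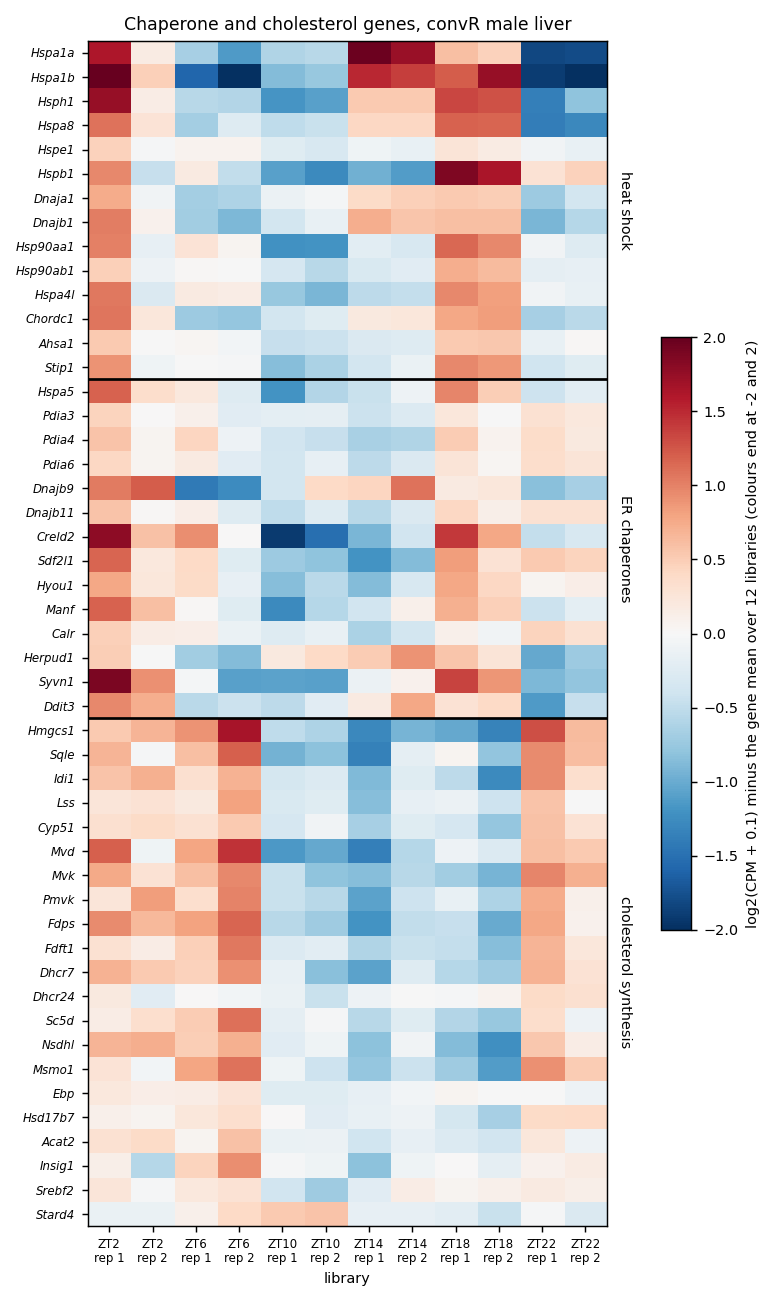
Each row is a gene of the heat shock, endoplasmic reticulum (ER) chaperone or cholesterol synthesis list that differed between ZT and each column is a library, coloured by log2(CPM + 0.1) minus the gene's mean over the 12 libraries, with colours ending at -2 and 2. Most heat shock genes are red at ZT18 and in ZT2 replicate 1, the Hspa1a and Hspa1b rows are darkest blue at ZT22 and ZT6, and most cholesterol genes are red at ZT22, ZT2 and ZT6 and blue from ZT10 to ZT18.

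A component with a period of 12 h, fitted beside the 24 h terms, was called for 380 genes (2.23%). This count was between 23 and 202 without ZT2 replicate 2, ZT10 replicate 1, ZT14 replicate 2 or any ZT6, ZT18 or ZT22 library (34 without ZT18 replicate 1), and it was 5 without both libraries with pancreas or muscle markers. The named genes, Abtb2, Slc15a2, Cgn, Gpd2, Gldc, Tmem140, Khnyn, Tjp3, Rcan1 and Trim7, shared an adjusted p of 0.00877. Abtb2 measured 31.4 and 25.8 CPM at ZT2, 39.7 and 44 at ZT6, 10.5 and 9.96 at ZT10, 17 and 19.5 at ZT14, 48 and 42.3 at ZT18 and 29.9 and 27.9 at ZT22. It was high at ZT6 and at ZT18 and low at ZT10 and ZT14, with a 12 h amplitude of 0.79 ± 0.0727. Rcan1, an inhibitor of calcineurin, measured 39.8 and 31.3 CPM at ZT2, 16.5 and 13.9 at ZT6, 18.3 and 19.5 at ZT10, 62.8 and 47 at ZT14, 33.4 and 40.2 at ZT18 and 14.8 and 19.5 at ZT22. Its ZT14 libraries were the highest, ZT2 and ZT18 came next and overlapped, and ZT6, ZT10 and ZT22 were low (12 h amplitude 0.75 ± 0.0825). Slc15a2, a peptide transporter, had the largest 12 h amplitude of these, 2.32 ± 0.23, with lows at ZT2 and ZT14. Gldc, which cleaves glycine, went from 252 and 251 CPM at ZT6 to 107 and 95.4 CPM at ZT10 and 287 and 283 CPM at ZT18. Cgn and Tjp3, both proteins of tight junctions, had 12 h amplitudes of 0.38 ± 0.0394 and 0.56 ± 0.0614. From the lists, 2 of 16 heat shock genes, Hspa1a (12 h amplitude 1.63 ± 0.22, adjusted p = 0.0197) and Hsp90aa1 (0.75 ± 0.11, adjusted p = 0.0260), and 1 of 19 ER chaperones, Creld2 (1.12 ± 0.18, adjusted p = 0.0297), were called. The call was lost for Hspa1a without either library of ZT22 (adjusted p up to 0.0659), for Hsp90aa1 without either library of ZT6, ZT18 or ZT22 or ZT10 replicate 1 (up to 0.0905) and for Creld2 without either library of ZT18 or ZT22 or ZT6 replicate 1 or ZT10 replicate 1 (up to 0.111). Pfkfb3, the enzyme that makes the activator of glycolysis, measured 21.9 and 16.5 CPM at ZT2, 5.10 and 5.47 at ZT6, 18 and 22.3 at ZT10, 45.7 and 47.6 at ZT14, 13.5 and 7.26 at ZT18 and 5.30 and 5.24 at ZT22. ZT14 was the highest and ZT2 and ZT10 came next, with ZT6 and ZT22 at the bottom (12 h adjusted p = 0.0125).

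Acute-phase genes, which hepatocytes secrete in inflammation, were high at ZT22 and, to a lesser degree, at ZT6. Of 20, 19 differed between ZT (29.8% of all genes did) and 18 had their highest mean at ZT22, where 14.4% of all genes had theirs. Saa1, serum amyloid A, measured 265 and 19.5 CPM at ZT2, 991 and 1705 at ZT6, 26.2 and 27.4 at ZT10, 19.9 and 174 at ZT14, 16.3 and 27.8 at ZT18 and 3821 and 4118 at ZT22. Both ZT22 libraries were the highest and both ZT6 libraries came next, above all 8 others (any ZT adjusted p = 0.00118). Lcn2, a siderophore-binding lipocalin, measured 6.54 and 1.25 CPM at ZT2, 19.1 and 50.1 at ZT6, 1.68 and 2.72 at ZT10, 1.79 and 3.96 at ZT14, 1.62 and 2.03 at ZT18 and 394 and 332 at ZT22. Its highest ZT mean was 199-fold its lowest (any ZT adjusted p = 2.47e-05), and its 24 h call (adjusted p = 0.0448) was lost without either library of ZT6, ZT10, ZT14, ZT18 or ZT22 (adjusted p up to 0.114). Haptoglobin, Hp, measured 2999 and 1799.6 CPM at ZT2, 3639 and 3327 at ZT6, 1909 and 1799 at ZT10, 2221 and 2170.4 at ZT14, 2028 and 2203 at ZT18 and 9039.7 and 9941 at ZT22, and hemopexin, Hpx, measured 3459 and 2975 CPM at ZT2, 6568 and 6674 at ZT6, 3135 and 3163 at ZT10, 3146 and 3576 at ZT14, 3247 and 3491 at ZT18 and 11705 and 11562 at ZT22. In both, ZT22 was the highest, and in Hpx both ZT6 libraries were above the 8 others. The 6 genes of the list called higher in the dark (1.97% of all genes) were Hp, Hpx, Itih3, Itih4, Serpina3n and Cebpd, by 0.52, 0.34, 0.28, 0.30, 0.50 and 0.59. None of the 20 was called higher in the dark, or as rhythmic, without the libraries with pancreas or muscle markers. In that fit 18 differed between ZT. With single libraries left out in turn, Hpx kept its call in every fit. Hp lost it without ZT6 replicate 2, ZT18 replicate 2 or ZT22 replicate 2 (adjusted p up to 0.0581), Serpina3n without either library of ZT14, ZT18 or ZT22 or ZT6 replicate 1 or ZT10 replicate 2 (up to 0.0905), Itih3 without either library of ZT6, ZT10, ZT14 or ZT18 or ZT2 replicate 2 or ZT22 replicate 1 (up to 0.127), Itih4 without either library of ZT6, ZT10, ZT18 or ZT22 or ZT2 replicate 2 or ZT14 replicate 2 (up to 0.116) and Cebpd without either library of ZT2, ZT6, ZT10 or ZT14 or ZT18 replicate 1 or ZT22 replicate 2 (up to 0.153). Without ZT22, 1 of the 20 was higher in the dark and 5 in the light, and the differences were -0.20 for Hp, -0.26 for Hpx (adjusted p = 0.0411), -0.14 for Itih3, -0.28 for Itih4 and -0.23 for Serpina3n. Cebpd, the transcription factor C/EBPδ, peaked at ZT14.7 ± 0.649 h instead (amplitude 0.68 ± 0.12, adjusted p = 0.0111).

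**Figure D5:**
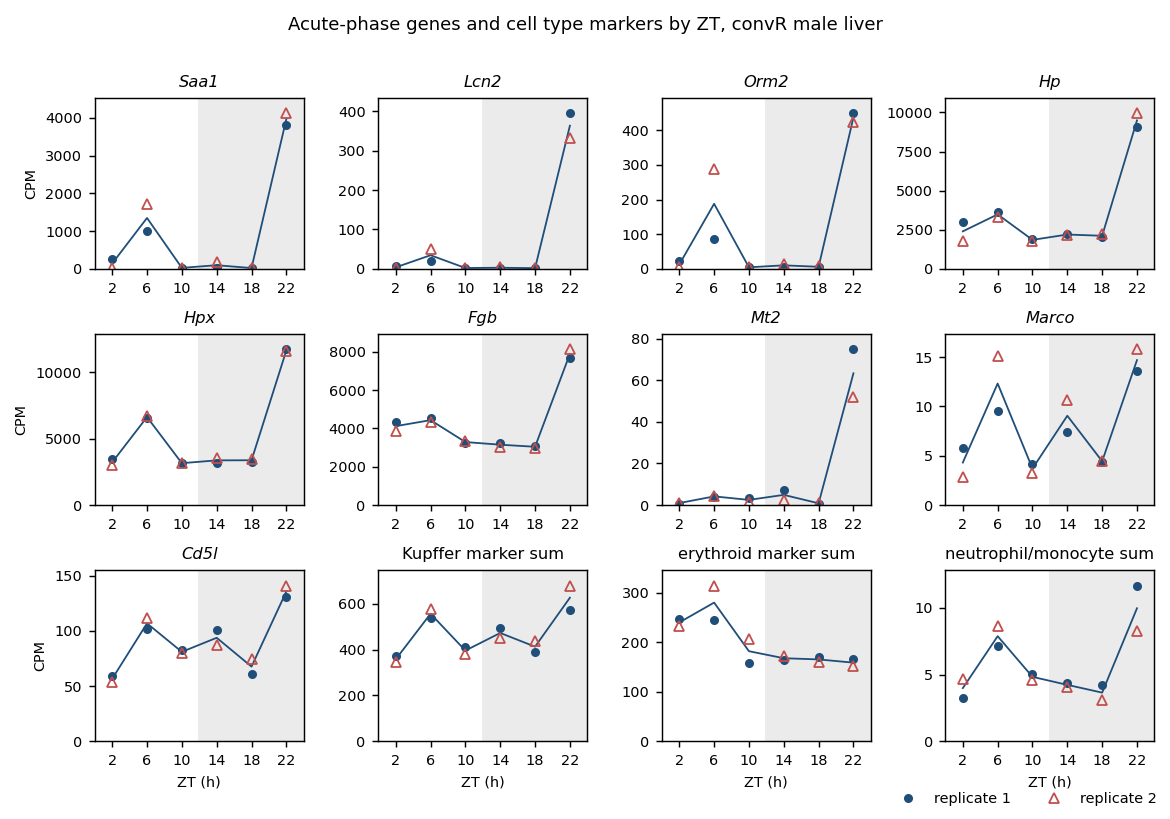
The level in CPM (y axes) at each ZT (h, x axes) of 6 acute-phase genes, the metallothionein Mt2, 2 Kupffer cell genes and the summed markers of 3 cell types, with replicate 1 as filled circles, replicate 2 as open triangles, a line through the ZT means and the dark phase shaded. Saa1, Lcn2, Orm2, Hp, Hpx, Fgb and Mt2 are highest at ZT22, and the Kupffer marker sum is highest at ZT22 and ZT6, while the erythroid sum is highest at ZT6.

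Most Kupffer cell markers and the summed neutrophil and monocyte markers also had their highest mean at ZT22. Of 12 markers of Kupffer cells, the resident macrophages of the liver, 11 differed between ZT (29.8% of all genes did). The highest mean was at ZT22 for 11, where 14.4% of all genes had theirs. Marco, a scavenger receptor, measured 5.75 and 2.87 CPM at ZT2, 9.50 and 15.2 at ZT6, 4.19 and 3.22 at ZT10, 7.41 and 10.7 at ZT14, 4.38 and 4.51 at ZT18 and 13.6 and 15.8 at ZT22, and Cd5l, a macrophage lipid-binding protein, measured 59.3 and 53.8 CPM at ZT2, 102 and 112 at ZT6, 82.4 and 79.5 at ZT10, 101 and 87 at ZT14, 61 and 74.1 at ZT18 and 130.5 and 141 at ZT22. ZT22 and ZT6 were the highest and ZT2 the lowest or near it, and Clec4f, the marker most specific to Kupffer cells, had 121 and 138 CPM at ZT22 against 91.8 and 81.8 CPM at ZT2. Of the 12, 3 were called higher in the dark (1.97% of all genes). None was without ZT22 or without the libraries with pancreas or muscle markers, and 10 were without ZT6. The 3 were Vsig4, Cd5l and C1qc, higher by 0.28, 0.28 and 0.26. These calls were lost for Vsig4 without either library of ZT6, ZT10, ZT14, ZT18 or ZT22 or ZT2 replicate 2 (adjusted p up to 0.154), for Cd5l without either library of ZT6, ZT10 or ZT22 or ZT2 replicate 2, ZT14 replicate 1 or ZT18 replicate 2 (up to 0.119) and for C1qc without either library of ZT2, ZT6, ZT10, ZT14 or ZT18 or ZT22 replicate 2 (up to 0.149). Neutrophil and monocyte markers summed to between 3.09 and 11.7 CPM. Their ZT22 libraries (11.7 and 8.27 CPM) overlapped those of ZT6 (7.11 and 8.65 CPM). Prtn3, a protease of neutrophil granules, measured 0.344 and 0.261 CPM at ZT2, 0.625 and 1.73 at ZT6, 0.248 and 0.134 at ZT10, 0.0979 and 0.221 at ZT14, 0.130 and 0.103 at ZT18 and 11.8 and 6.73 at ZT22. B and plasma cell markers summed to 4.72 to 22.4 CPM, and all 8 had their highest mean at ZT6. The part of these cells in the acute-phase values was not tested.

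The remaining lists held few called rhythms, where 7.09% of all genes had one. Their rhythm counts, from 0 to 2 genes a list, are too small to be set apart from that share. Of 10 reference genes none was called by any of the 4 tests, with a median amplitude of 0.11. Ribosome biogenesis genes differed between ZT in 15 of 21 (29.8% of all genes did), with 10 highest at ZT2 (23.2% of all genes). Of the 21, 1 had a called rhythm, Nop16 (peak ZT18.8 ± 0.790 h, amplitude 0.38 ± 0.0786). This call was lost without either library of ZT10 or ZT18 or ZT6 replicate 2 or ZT14 replicate 1 (adjusted p up to 0.0847). Growth hormone and STAT5 genes were called as rhythmic in 1 of 9, Ghr, proliferation genes in none of 15, SRF and actin genes in 1 of 12, Actb, and autophagy genes in 2 of 10, Bnip3 and Gabarapl1. Other cell types showed 1 rhythmic marker each for hepatocytes (Hnf4a of 10), T and NK cells (Cd4 of 9 tested), stellate cells (Pdgfrb of 9) and cholangiocytes (Sox9 of 6), and none of 8 endothelial, none of 7 tested neutrophil and monocyte, none of 5 adipocyte and none of 2 tested muscle markers. Among 8 B and plasma cell markers Ighm was rhythmic, and among 3 tested pancreas markers Ctrb1 was. Of these calls, those of Ghr, Actb, Gabarapl1, Hnf4a and Ighm were lost in some fits with 1 library left out (adjusted p up to 0.0799, 0.0950, 0.0543, 0.0676 and 0.0812), and that of Ctrb1 without ZT18 replicate 1 (0.542). Endothelial markers summed to 437 to 535 CPM, stellate cell markers to 393 to 575, cholangiocyte markers to 30.5 to 58.5, T and NK cell markers to 2.63 to 5.11 and adipocyte markers to 0.956 to 9.88 CPM. The adipocyte sum was higher in replicate 1 than in replicate 2 at all 6 ZT.

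Set against the 12 convR females, no gene of 17423 differed in its 24 h rhythm at an adjusted p under 0.05 by edgeR (0.0%). DESeq2 called 38. An unadjusted p under 0.05 was reached by 903 of the 17423 genes. Where no gene differs, a fraction of 0.05 is expected to reach it, so the 903 are not read as differences. The lowest adjusted p belonged to Prom1, a membrane glycoprotein of progenitor cells (amplitude 0.36 in males and 1.03 in females, adjusted p = 0.0608). Nrip1, a co-repressor of nuclear receptors, came next (amplitude 0.0499 in males and 0.56 in females, adjusted p = 0.0793), and Rnf39, Phospho1 and Col5a3 had an adjusted p of 0.361. Sex coincides with the count table, so the 2 cannot be told apart.

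Set against the 12 GF males, which lack a gut microbiome, 22 of 17550 genes differed in their rhythm (0.125%). This count was 4 without the convR libraries with pancreas or muscle markers, and it was from 5 to 14 without GF ZT18 replicate 1 or 2 or convR ZT6 replicate 2, ZT10 replicate 2 or any convR ZT18 or ZT22 library, and 35 without GF ZT22 replicate 2. DESeq2 called 300. The 5 of lowest adjusted p were Hist1h1d and Hist1h1e, which encode linker histones, Ahctf1, a nucleoporin, Ikbkg, the NEMO subunit of the IκB kinase, and Crybg3. In convR males Hist1h1d measured 19.1 and 16.6 CPM at ZT2, 13.6 and 13.4 at ZT6, 9.04 and 9.21 at ZT10, 9.47 and 14.1 at ZT14, 28.2 and 34 at ZT18 and 20.8 and 22.5 at ZT22. ZT18 was the highest and ZT10 the lowest, with an amplitude of 0.73 with a peak at ZT20.9, against 0.98 with a peak at ZT6.26 in GF males (adjusted p = 0.00426). Hist1h1e had 0.31 with a peak at ZT20.3 in convR and 0.52 with a peak at ZT5.74 in GF males (adjusted p = 0.0183, and up to 0.0564 without replicate 2 of ZT18 in either group). Ahctf1 and Crybg3 had small convR amplitudes of 0.18 with a peak at ZT17.1 and 0.20 with a peak at ZT17.4, against 0.75 with a peak at ZT19.7 and 0.81 with a peak at ZT18.7 in GF males. Ikbkg had 0.14 with a peak at ZT8.89 against 0.50 with a peak at ZT20.6. Of the genes described above, Pdk4 had 1.33 with a peak at ZT0.229 in convR and 1.89 with a peak at ZT20.9 in GF males (adjusted p = 0.0415). That call was lost without any one convR library other than ZT2 replicate 1, and without either GF library of ZT10 or ZT18, GF ZT6 replicate 1 or GF ZT14 replicate 2 (adjusted p up to 0.154). Cyp7a1 had 0.19 with a peak at ZT19.2 in convR and 2.07 with a peak at ZT14.4 in GF males (adjusted p = 0.0230, and up to 0.0648 without GF ZT14 or ZT18 replicate 2). None of the 19 clock genes passed this test.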

How the data were processed

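Total RNA-seq of 48 mouse livers was deposited by the authors as raw exon read counts per gene, in 1 table per sex, and per the submitters' processing notes STAR 2.4.0i and the mm10 build were used. How reads were counted, with which annotation and on which strand, is not given in the sources used here, so reads of overlapping, antisense or near-identical genes, such as the globin, heat shock 70 and histone genes, may be shared. The 12 convR male columns were taken by their names. Genes were placed by ID in GENCODE M21 (GRCm38, 36308 of 38087 matched), and promoter windows were RefSeq's. CPM were scaled by the total count of each library alone. For the fits, TMM scaling was used in edgeR 4.0.16 (limma 3.58.1, R 4.3.3). Genes were kept by filterByExpr with the ZT as group (minimum count 10, minimum total 15). Every adjusted p is from edgeR's quasi-likelihood test with Benjamini-Hochberg adjustment over all genes tested, at 0.05. The rhythm model had a 24 h cosine and sine, the phase contrast and the test of any change had 1 coefficient per ZT, and the 12 h terms were added to the 24 h terms. Differences of rhythm between groups were interaction terms, in 24 libraries each. Errors after ± are standard errors of the fit unless named SD. The 2 libraries of each ZT differed by more than counting noise, and the deeper a library, the smaller the counting error of its low genes.

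The text names the 10 genes of lowest adjusted p and the 15 of largest amplitude for the rhythm, the 10 highest and 10 lowest called fold changes between phases, the 10 lowest adjusted p for 12 h and the 5 lowest for each interaction, each only where its average log2 CPM reached 0, and members of the 23 gene lists and 12 marker lists. Predicted genes, pseudogenes and small RNA genes were counted, not named, and a few members of the lists are not reported here. The lists and the group itself were chosen with earlier results of these data known. The scripts were tested on simulated data. Alternatives were DESeq2 1.42.0, edgeR's RLE scaling, scaling by total counts alone, no filter, robust dispersions, a replicate block, all 48 libraries, phase alone, 12 h terms and each library left out. Fits without the libraries with pancreas or muscle markers, without ZT6 and without ZT22 were added after seeing the data. Motifs were searched on both strands.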

Additional observations from a re-analysis of the deposited data

Results flagged for a closer look

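The fit of rhythm by microbiome status gave 7 genes of those described whose 24 h rhythm differed between convR and GF males at an adjusted p under 0.05 by edgeR. The size of such a difference is the length of the difference between the groups in the cosine and sine terms, on the log2 scale, so it counts a change of amplitude and a change of peak time alike. It was 2.021 for Cyp7a1 (amplitude 0.19 with a peak at ZT19.2 in convR and 2.07 with a peak at ZT14.4 in GF males), and 1.457 for Pdk4, whose fitted peak in GF males came earlier. Among the linker histone genes it was 1.609 for Hist1h1d and 0.7888 for Hist1h1e, both with peaks in the dark phase in convR males and near ZT6 in GF males. It was 0.6275 for Ahctf1 and 0.6243 for Crybg3, whose amplitudes were larger in GF males at peaks of the same part of the night. For Ikbkg, whose amplitude was also larger in GF males, with a peak in the dark, it was 0.6472. The convR amplitudes of Ahctf1, Crybg3, Ikbkg and Cyp7a1 were small, so their convR peak times are uncertain. Hist1h1d, Ahctf1, Ikbkg and Crybg3 stayed past the threshold in all 24 fits that left out 1 library, and Hist1h1e and Cyp7a1 in 22, but Pdk4 in only 7.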

How the results depend on the processing

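The number of rhythmic genes was 2280 without the low-count filter, 2517 by DESeq2, 2606 with 12 h terms added, 325 without the libraries with pancreas or muscle markers and 2854 without ZT22. It ran from 518 to 1532 with 1 library left out. Genes that differed between the phases numbered 1545 without the filter, 191 with all 48 libraries in the fit, 1 with phase alone, 165 without the pancreas and muscle libraries, 356 without ZT6 and 1521 without ZT22, and 227 to 832 with 1 library left out. Of these calls 44.0% were higher in the dark under scaling by total counts and 65.4% without ZT6. Genes with any change numbered 2111 without the pancreas and muscle libraries and 3382 to 5288 with 1 library left out. The 12 h count was 2403 without the filter, 1580 by DESeq2, 5 without the pancreas and muscle libraries, 1465 without ZT6 and 23 to 558 with 1 library left out. The count of rhythms that differed from females was 189 without the filter, 1 with robust dispersions, 38 by DESeq2 and 0 to 2 with 1 library left out. The count that differed from GF males was 1014 without the filter, 300 by DESeq2, 4 without the pancreas and muscle libraries and 5 to 35 with 1 library left out. The fits without those libraries or without a ZT were chosen after seeing the data. Each fit with libraries left out had fewer samples, and for the other alternatives the cause was not tested. The fitted peak of Ctrl turned to the opposite part of the day without the pancreas and muscle libraries, with an amplitude of 0.345 (adjusted p = 0.881), and without ZT18 replicate 1, with an amplitude of 0.242, and its amplitude ran up to 4.2052 with other libraries left out. Without ZT22 the dark minus light differences turned in sign for Mt2 (-0.045), Hp (-0.198), Hpx (-0.263), Itih3 (-0.141), Itih4 (-0.281) and Serpina3n (-0.232).

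The labels do not say what the replicate numbers share. The difference of replicate 1 minus 2 correlated across genes between ZT at r from -0.0978 to 0.246, not above 0.1 in every pair of ZT, so the numbers were not used as a pairing. The adipocyte marker sum was higher in replicate 1 at all 6 ZT, from 4.84 against 3.29 CPM at ZT14 to 8.98 against 0.956 CPM at ZT6. With a replicate block the counts were 900 for the rhythm, 630 for the phases, 5038 for any change, 237 for 12 h and 18 for the difference from GF males.

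Each ZT had 2 libraries of 1 course, so a time of sampling and a time of day cannot be told apart, and the phase contrast rests on 3 ZT a phase. Low values, such as those of Npas2 at ZT14 or of Ctrb1 and Prtn3 outside their highest libraries, rest on few reads and carry a large counting error.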

Other observations

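Other members of the clock output list added peaks across the dark phase. Lonrf3, a RING-finger protein, and Tspan4, a tetraspanin, had called rhythms with peaks at ZT17.7 ± 0.721 h and ZT16 ± 0.399 h and amplitudes of 0.69 ± 0.13 and 0.61 ± 0.0638 (adjusted p = 0.0189 and 0.00115 by edgeR), and both were higher in the dark, by 0.79 ± 0.11 and 0.72 ± 0.0743. The rhythm of Lonrf3 was no longer called without either library of ZT18 (adjusted p up to 0.0554). Coq10b, which binds coenzyme Q, peaked at ZT12.2 ± 0.686 h with an amplitude of 1.04 ± 0.19 (adjusted p = 0.0146), and the kinase gene Pim3 at ZT13.8 ± 0.463 h with 0.87 ± 0.11 (adjusted p = 0.00219).

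Among genes of amino acid breakdown, Sds, the serine dehydratase, measured 119 and 84 CPM at ZT2, 164 and 149 at ZT6, 164 and 146 at ZT10, 167 and 233 at ZT14, 135 and 139.9 at ZT18 and 113 and 125 at ZT22. Its fitted peak was at ZT12.3 ± 0.774 h with an amplitude of 0.42 ± 0.0844 (adjusted p = 0.0259), a call lost without either library of ZT14 (up to 0.0662). Otc, a urea cycle enzyme, had a called rhythm of small size, with an amplitude of 0.19 ± 0.0391 and a peak at ZT10.4 ± 0.777 h, and the call was lost without either library of ZT10 or ZT14 replicate 1 or ZT22 replicate 2 (adjusted p up to 0.0714). Gpd2, the mitochondrial glycerol phosphate dehydrogenase and one of the genes named for a 12 h component, measured 52.7 and 55 CPM at ZT2, 35.3 and 32.3 at ZT6, 44.4 and 43.2 at ZT10, 50.03 and 51.5 at ZT14, 29.5 and 31.4 at ZT18 and 32.3 and 40.3 at ZT22, with a 12 h amplitude of 0.39 ± 0.0407 (adjusted p = 0.00877).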
